A study of Mus musculus with 4 samples.

Results

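The cells described here are the CD4 T cells of a follicular helper sort that carried transcripts of dividing cells. They were found by a rule on the counts of single cells. A cell with 500 or more genes, at most 10% mitochondrial counts and no count of Cd79a (a B-cell receptor component) or Cd8b1 (a CD8 chain) was called cycling when Mki67, Top2a, Birc5, Ube2c, Nusap1, Hmmr, Cdca8 and Ccnb2 summed to 4 or more unique molecular identifiers (UMIs, counted molecules). Of 3956 barcodes in the sort (11602 in the series), 3037 passed the other limits and 339 of these were cycling. Hashtag antibodies tied 324 of the 339 to 1 of 3 mice, with 114, 123 and 87 cells from mice 1, 2 and 3. The reference, called resting below, was the 2107 cells with none of these 8 transcripts and at least 1 UMI of Cd3d, Cd3e or Cd3g, of which 2055 had a mouse (775, 833 and 447). The word only means that no such transcript was counted. Since the 8 genes chose the cells, they are not reported as results.

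Follicular helper T (Tfh) cells were sorted from the mediastinal (lung-draining) lymph node of C57BL/6 mice as TCRβ+ CD4+ CD44+ PD-1+ CXCR5+ cells on day 7 after intranasal extract of the mould Alternaria alternata (10 µg) with the hapten-carrier antigen NP-OVA (25 µg). The sorted cells were stimulated for 30 min with PMA and ionomycin, which bypass the antigen receptor, so every cell described here, cycling or resting, carries that stimulus. A second sort, used for 1 comparison, took TCRβ+ CD4+ CD44+ cells positive for GFP from C57BL/6 4get mice, whose GFP reports Il4 transcription, after the same immunization and stimulation. Each sort pooled 3 hashtagged mice in 1 lane of the 10x Genomics system and holds no unimmunized or unstimulated cells.

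Tfh cells settle in B-cell follicles, where CXCR5 guides them, and help germinal-centre B cells through IL-21, IL-4 and CD40 ligand under the transcription factor Bcl6. Dividing lymphocytes copy their DNA with the MCM helicase, the replication polymerases and a supply of nucleotides made on demand, then condense and separate chromosomes with mitotic kinases, kinesins and kinetochore proteins. E2F factors drive the first of these programs, and the MuvB complex with B-Myb and FoxM1 drives the second. The 8 genes of the rule belong mostly to the second program, so cells early in DNA synthesis can be missed by it.

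By their transcripts the cycling cells were T cells. Cd3d was counted in 97.6% of the 339 cycling cells and 95.0% of the resting cells, Trac in 98.2% and 90.2%, Trbc2 in 99.7% and 98.2%, and Cd4 in 71.4% and 52.7%. A Cd3 UMI was missing in 3 cycling cells. Defining markers of the other cell types were at 0 in the summed cycling cells for Cd79a and Cd8b1 (by the rule), Mef2b and Rgs13 (germinal-centre B cells), Sdc1 (plasma cells) and Ncr1 and Zbtb16 (innate lymphocytes). Other members of these lists were counted. The 10 plasma-cell genes summed to 326, 276 and 294 CPM (UMIs scaled to a fixed library total) in the cycling cells of mice 1, 2 and 3 and to 396, 438 and 409 CPM in the resting cells. The 10 genes of natural killer and innate lymphoid cells summed to 272, 199.996 and 267 against 223, 224 and 224 CPM, the 10 germinal-centre B-cell genes to 62.2, 54 and 56.9 against 96.2, 91.6 and 107 CPM, and the 6 CD8 T-cell genes to 55.5, 25.1 and 89.6 against 133, 41.8 and 161 CPM. The rule left out 93 further cells that had 4 or more UMIs of the 8 genes but carried a Cd79a or Cd8b1 UMI. The 2 gene expression libraries shared 1 barcode.

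Some cells in both states carried transcripts of other cell types. At least 3 UMIs over 7 macrophage genes (C1qa, C1qb, C1qc, Apoe, Tyrobp, Fcer1g, Lyz2) were found in 5 of the 324 cycling and 10 of the 2055 resting cells, and the 5 cycling cells held 97.1% to 99.0% of these UMIs in each mouse. At least 10 UMIs over Cd74, H2-Aa, H2-Ab1 and H2-Eb1 were found in 11 cycling and 15 resting cells. The 12 listed macrophage and dendritic-cell genes together reached 1178, 966 and 933 CPM in the cycling cells of the 3 mice and 812, 569 and 781 CPM in the resting cells. The 18 B-cell genes together reached 941, 1119 and 2021 CPM in cycling and 1375, 1149 and 1123 CPM in resting cells.

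Far more UMIs were counted in the cycling cells. Their median UMI total was 7963, 8324 and 7278 in mice 1, 2 and 3, against 2614, 2447 and 2650 in the resting cells, a ratio of 3.05, 3.40 and 2.75. The median number of genes was 2402, 2475 and 2322 against 1154, 1107 and 1161. Of all 339 cycling cells, with or without a mouse, 22 lay below the median total of all 2107 resting cells (2557 UMIs). Mitochondrial transcripts took a median of 2.61%, 2.67% and 2.82% of the UMIs of cycling cells and 3.55%, 3.57% and 3.65% of those of resting cells. The rule also bears on depth, since 4 or more UMIs are reached more readily in deep cells and 0 in shallow ones. Median totals were 2447 to 2650 UMIs at a sum of 0 and 8539 to 9425 at 16 or more. Larger cells, captures of more than 1 cell of a mouse and this selection would each raise the total, and these cannot be told apart here.

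**Figure D1:**
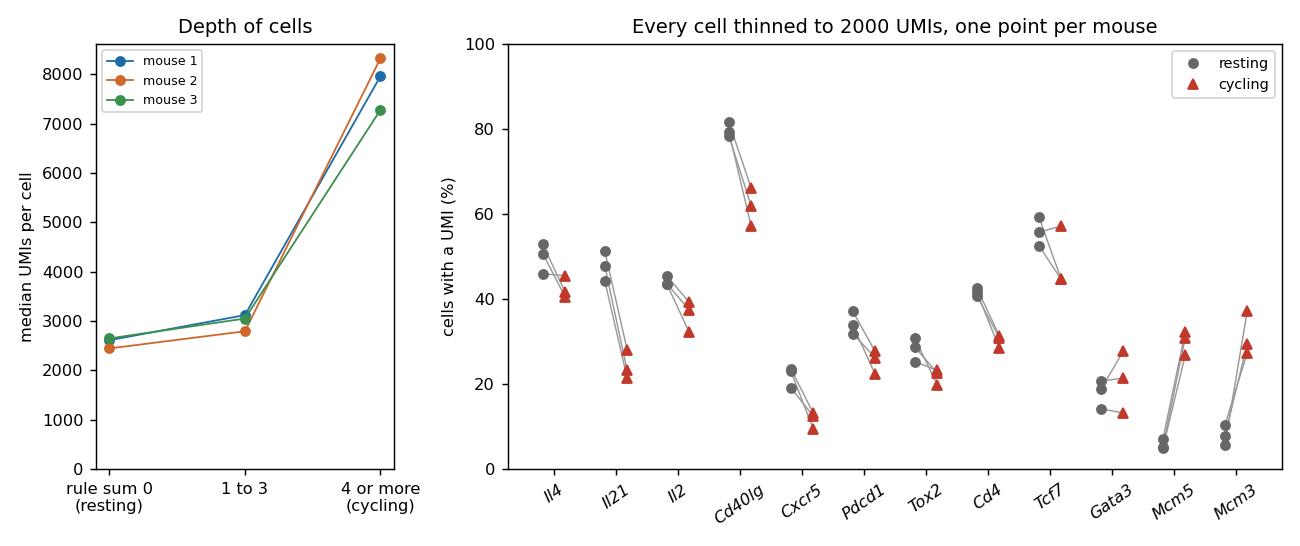
Left, median UMIs per cell (y axis) of each mouse for cells with 0, 1 to 3, and 4 or more UMIs over the 8 genes of the rule (x axis); right, the percentage of cells with at least 1 UMI of a gene after every cell was thinned to 2000 UMIs, with a grey circle for the resting and a red triangle for the cycling cells of each mouse and a line joining both. The cycling cells of the 3 mice had a median of 7278 to 8324 UMIs, and at equal depth fewer of them than of the resting cells carried Il21, Cd40lg or Cxcr5 in each mouse.

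The share of cycling cells was 10.4% in mouse 1 (114 of 1099 cells, exact 95% binomial interval 8.63 to 12.3), 10.4% in mouse 2 (123 of 1184, 8.71 to 12.3) and 13.1% in mouse 3 (87 of 664, 10.6 to 15.9), a mean of 11.3% ± 1.57 (SD, n = 3). The intervals, which cover counting error only, overlap. After thinning each cell to 2000 UMIs before the rule, the shares were 8.66%, 9.18% and 12.3%. With 8 or more UMIs required, the mean was 9.51%. The sum over the 8 genes had a median of 22 and reached 103, and 186 cells had 20 or more. Just inside the threshold, 14 cells had a sum of 4, and just outside it 25 cells had a sum of 3.

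For the comparison of cycling with resting cells, UMIs were summed per mouse and state, which gave 1045715, 1075022 and 703473 UMIs of cycling and 2235844, 2368644 and 1344365 UMIs of resting cells. edgeR's quasi-likelihood test with the mouse as a block and Benjamini-Hochberg adjustment over all 7275 genes tested (threshold 0.05) called 1765 genes higher (24.3% of those tested) and 1733 lower (23.8%) in cycling cells. Of these, 619 rose and 405 fell by more than 1 on the log2 scale. Every list below is to be read against these shares and against the median change of all tested genes, -0.02. Levels are CPM scaled by TMM factors, log2 changes are cycling minus resting with their standard error (SE), and every adjusted p comes from this edgeR test.

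These changes are relative to a cell's total UMIs. Of the 1733 genes called lower, 1497 had more UMIs per cell in the cycling cells of all 3 mice, and 15 had fewer in all 3. A lower level therefore means a smaller portion of a larger UMI total for most genes. A second comparison, reported as matched for depth, set 52, 55 and 53 cycling cells of the 3 mice against as many resting cells of like UMI totals. Median totals were 5896.5, 5164 and 5318 UMIs in cycling and 5750, 5203 and 4545 in resting cells, a looser match in mouse 3. The 95th percentile of all resting cells was 5437, 5430 and 5482 UMIs, and the median of all cycling cells 7963, 8324 and 7278. The matched cells are thus unusually deep resting cells and shallower cycling cells, and stand for neither group as a whole. With these fewer cells and 3579 genes tested, 438 genes were higher (12.2%) and 366 lower (10.2%), the shares against which list counts at matched depth are to be read. With every cell thinned to 2000 UMIs they were 18.3% and 15.7% of 4914 genes. Of the 2306 main calls that could be tested at matched depth, 743 were called again and 85.7% kept their direction. In thinned cells 1617 of 2848 were called again and 98.4% kept their direction.

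**Figure D2:**
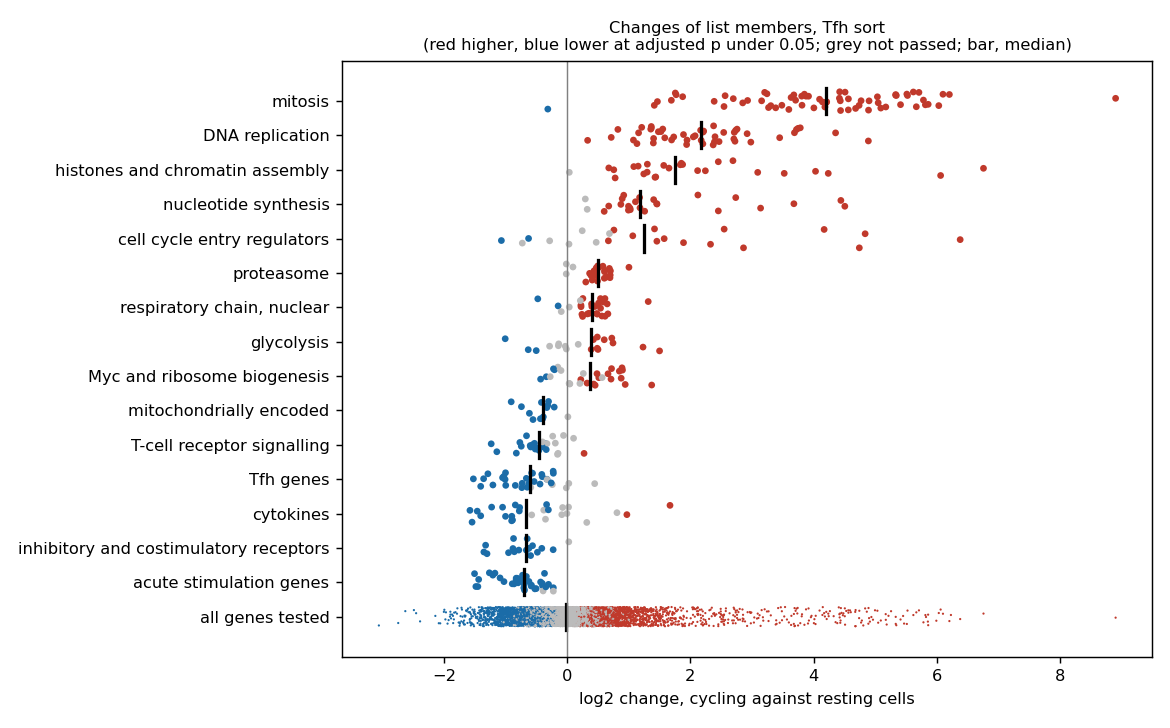
Log2 change of cycling against resting cells (x axis) for the tested members of 15 gene lists and, in the bottom row, all 7275 genes tested (1 point a gene). Red and blue points were higher or lower at an adjusted p under 0.05, grey points did not pass, and the black bar is the list's median, from 4.21 for mitosis to -0.71 for acute stimulation genes.

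Genes of DNA replication rose together. All 48 of the 48 tested list members were higher in cycling cells (24.3% of all tested genes were), with a median log2 change of 2.17 and a range of 0.33 to 4.89. The helicase subunit Mcm5 stood at 211, 201 and 181 CPM in the cycling cells of mice 1, 2 and 3 and at 35.5, 39 and 40.4 CPM in their resting cells, a log2 change of 2.39 (SE 0.11) with adjusted p = 3.6e-16. Mcm7, another subunit, had 169.6, 212 and 180.0 against 25.9, 32 and 28.2 CPM, a change of 2.71 (SE 0.12). The DNA ligase Lig1 had 198, 237 and 223 against 44.6, 55.4 and 45 CPM and changed by 2.17 (SE 0.10), and Gmnn, the inhibitor of repeated replication licensing, by 2.71 (SE 0.14). For none of these 4 genes did the cycling and resting groups overlap, which was so for 55.2% of all tested genes. Among the 31 members tested after matching for depth, 30 rose, with a median of 1.59. At 2000 UMIs a cell, 26.8%, 32.2% and 31.0% of the cycling cells carried an Mcm5 UMI, against 4.99%, 7.02% and 5.17% of the resting cells; in 177 B cells of the same lane, thinned likewise, the share was 8.47%.

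The mitosis list holds genes that are co-expressed with the 8 genes of the rule, so its rise describes the choice of cells and supports nothing. Of 67 tested members 66 were higher and 1 lower, with a median log2 change of 4.21. Stmn1 (chr4:134468320-134473843, + strand, GRCm38), a microtubule destabilizer, had 1493, 1599.5 and 1784 CPM in cycling and 77.4, 71.9 and 76.2 CPM in resting cells, which is 4.42 (SE 0.067) on the log2 scale. Hmgb2, a chromatin protein, changed by 2.70 (SE 0.048) from 601, 658 and 624 to 3954, 3894 and 4415 CPM, Cks1b, a cyclin-dependent kinase subunit, by 3.71 (SE 0.098) and Cdca3, which promotes mitotic entry, by 5.82 (SE 0.16). The exception was Pttg1, the gene of the chromosome-separation inhibitor securin, at 77.9, 76.6 and 66.5 CPM in cycling and 94.7, 97.3 and 95.2 CPM in resting cells (-0.32; CPM scaled over both sorts). It is taken up again in the comparison of the sorts.

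The promoters of these leading genes are shown because the 2 groups that rose carried different short sequences near their start. Windows of 250 bases before to 50 bases after the annotated start were taken from RefSeq (GRCm38.p6) and searched on both strands for TTTGAA (the core of the cell cycle homology region, CHR, bound by MuvB), CCAAT (bound by NF-Y), and the E2F-type runs TTCCCGC in one form, TTGGCGC in another and lastly TTCGCGC. Capitals mark matches in either orientation, and adjacent matches can share letters. Hmgb2, Cks1b and Cdca3 belong to the mitosis list and the others to DNA replication, and each window is written 5′ to 3′ on the strand of its gene.
Hmgb2, chr8:57511593-57511892, + strand: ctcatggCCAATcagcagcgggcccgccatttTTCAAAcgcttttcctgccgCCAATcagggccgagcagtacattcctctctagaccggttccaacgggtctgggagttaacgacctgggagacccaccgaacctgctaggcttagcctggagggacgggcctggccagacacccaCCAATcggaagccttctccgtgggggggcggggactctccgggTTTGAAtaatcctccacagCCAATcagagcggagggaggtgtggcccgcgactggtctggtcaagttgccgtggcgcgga
Cks1b, chr3:89418242-89418541, - strand: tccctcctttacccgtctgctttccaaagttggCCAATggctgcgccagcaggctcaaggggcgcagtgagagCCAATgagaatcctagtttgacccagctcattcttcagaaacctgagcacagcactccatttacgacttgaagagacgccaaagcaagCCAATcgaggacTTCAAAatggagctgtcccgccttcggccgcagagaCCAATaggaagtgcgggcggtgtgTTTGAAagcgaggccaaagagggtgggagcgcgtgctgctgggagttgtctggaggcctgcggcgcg
Cdca3, chr6:124829926-124830225, + strand: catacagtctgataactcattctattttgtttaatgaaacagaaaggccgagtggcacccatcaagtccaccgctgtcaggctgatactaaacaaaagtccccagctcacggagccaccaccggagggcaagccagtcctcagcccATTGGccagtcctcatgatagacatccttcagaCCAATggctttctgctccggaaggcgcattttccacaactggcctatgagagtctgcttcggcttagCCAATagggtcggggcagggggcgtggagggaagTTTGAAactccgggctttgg
Mcm7, chr5:138171834-138172133, - strand: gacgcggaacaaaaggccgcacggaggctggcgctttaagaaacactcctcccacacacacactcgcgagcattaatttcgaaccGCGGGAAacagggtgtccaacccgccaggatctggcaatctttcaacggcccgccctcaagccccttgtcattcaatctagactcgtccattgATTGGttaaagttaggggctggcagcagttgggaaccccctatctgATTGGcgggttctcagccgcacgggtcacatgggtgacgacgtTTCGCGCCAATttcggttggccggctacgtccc
Mcm5, chr8:75109259-75109558, + strand: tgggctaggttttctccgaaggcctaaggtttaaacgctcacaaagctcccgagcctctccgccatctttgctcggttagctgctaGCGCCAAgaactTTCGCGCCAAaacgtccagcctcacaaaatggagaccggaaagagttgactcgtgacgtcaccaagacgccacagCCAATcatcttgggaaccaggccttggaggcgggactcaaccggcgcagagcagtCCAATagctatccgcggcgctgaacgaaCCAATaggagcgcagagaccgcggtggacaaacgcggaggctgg
Lig1, chr7:13276925-13277224, + strand: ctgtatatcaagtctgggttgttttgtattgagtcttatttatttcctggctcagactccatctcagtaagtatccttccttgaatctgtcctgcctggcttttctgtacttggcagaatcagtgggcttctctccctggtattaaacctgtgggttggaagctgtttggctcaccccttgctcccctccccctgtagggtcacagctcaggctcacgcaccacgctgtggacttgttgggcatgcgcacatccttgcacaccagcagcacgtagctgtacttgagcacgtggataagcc

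The windows of Hmgb2 and Cks1b held 2 CHR cores and 4 CCAAT boxes each, and that of Cdca3 held 1 and 3, with no E2F-type run in any of them. The windows of Mcm7 and Mcm5 held 3 CCAAT boxes and 3 E2F-type runs each and no CHR core. This window of Lig1, 1 of 3 for that gene, held no match, which says only that these letters are not in it. Over whole lists, the CHR core was in 73.2% of 56 windows of mitosis genes, 10.9% of 46 windows of DNA replication genes and 11.4% of 35 windows of Tfh genes, against 12.2% of the 7174 windows of all tested genes and 17.9% of all 32851 windows. E2F-type runs were in 65.2% of the DNA replication windows and 23.2% of the mitosis windows, against 15.6% for the tested genes and 8.07% for all windows. CCAAT was in 75% of the mitosis and 60.9% of the DNA replication windows, against 37.8% and 37.4%. RefSeq windows were matched for 52 mitosis, 38 DNA replication and 24 Tfh genes.

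Nucleotide synthesis rose as well, with 23 of 25 tested members higher, none lower and a median log2 change of 1.17. Rrm2, the regulated subunit of ribonucleotide reductase, had 433, 515 and 511 CPM in cycling and 18.7, 22.1 and 23.6 CPM in resting cells, 4.51 (SE 0.10) on the log2 scale. Tyms (thymidylate synthase) changed by 3.68 (SE 0.11), Tk1 (thymidine kinase) by 4.44 (SE 0.16) and Dut, which removes dUTP, by 2.45 (SE 0.087). The enzymes of purine synthesis Gart (0.92), Atic (1.02) and Paics (1.40) rose too. After matching for depth 9 of 15 tested members rose.

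Histones and chromatin proteins followed, with 25 of 26 tested members higher and a median of 1.74. H2afz, a histone variant, had 4017, 3625 and 3695 CPM against 761, 793 and 848 CPM, and H2afx, the variant phosphorylated at DNA breaks, 551, 534 and 633 against 67.3, 67.1 and 63.3 CPM. Their log2 changes were 2.24 (SE 0.048) and 3.09 (SE 0.084). Hmgn2, a nucleosome binder, changed by 2.45 (SE 0.061). The replication-dependent histone gene Hist1h2ap had 169.6, 346 and 224 CPM in cycling and 2.28, 2.16 and 2.29 CPM in resting cells, but histone genes of this kind have near-identical copies and mostly lack a poly(A) tail, so single copies are uncertain. After matching for depth 23 of 24 tested members rose, with a median of 1.83.

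Regulators of cell cycle entry did not move as 1 group: 14 of 22 tested members rose, 2 fell and 6 did not pass. E cyclins and E2F genes were higher, as with Ccne1 (2.33), Ccne2 (2.55) and E2f1 (1.89). Mybl2, the gene of B-Myb, had 38.4, 47.4 and 45.7 CPM against 0.455, 2.16 and 2.29 CPM, and Foxm1 had 62 UMIs in all cycling and 1 in all resting cells, a ratio of 131 (95% counting interval 22.6 to 5240). Cdkn3 (4.17, SE 0.25), a phosphatase of cyclin-dependent kinases, and Cdkn2c (2.86, SE 0.12), an inhibitor of Cdk4 and Cdk6, also rose. The D cyclins divided: Ccnd2 fell from 678, 659.8 and 599.8 to 315, 335 and 270.1 CPM (-1.07, SE 0.064, adjusted p = 4.8e-14), while Ccnd3 rose (0.76). Cdkn1b, the gene of the inhibitor p27, fell (-0.63).

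Metabolic and growth lists rose by smaller amounts, and most of these calls were not made at matched depth. Proteasome subunits were higher in 21 of 24 (median 0.49), nuclear genes of the respiratory chain in 23 of 28, with 2 lower (0.40), glycolysis genes in 10 of 19, with 3 lower (0.39), and Myc and ribosome biogenesis genes in 15 of 28, with 4 lower (0.38). Psmc1, a proteasome ATPase, had 149.9, 131 and 141 CPM against 73.3, 73.2 and 61.7 CPM (1.0, SE 0.11), and Sdhd, a subunit of respiratory complex II, had 99.3, 110.3 and 95.6 CPM against 39.6, 40.7 and 44.2 CPM (1.31, SE 0.13). Tpi1, a glycolytic enzyme, went from 166, 172 and 148 to 372, 402 and 371 CPM (1.23, SE 0.076). Matched for depth, 2 of 24 proteasome, 2 of 28 respiratory and 1 of 14 glycolysis genes rose, and of 21 Myc and ribosome biogenesis genes none rose and 3 fell. Npm1, a ribosome assembly factor that rose by 0.48 (SE 0.048), then stood at -0.38 (adjusted p = 0.016), and the cytokine-like enzyme Mif went from 0.49 to -0.39 (adjusted p = 0.045). In the sterol list 6 of 18 genes rose and 1 fell, and the largest of these rises was Stmn1, which is not a lipid enzyme; Fdps, which makes farnesyl diphosphate, changed by 0.94 (SE 0.14). At matched depth the calls for Fdps (0.57, adjusted p = 0.20) and Sdhd (0.58, 0.18) ended.

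Genes encoded by the mitochondrion went the other way from the nuclear genes of the same chain, with 12 of 13 lower and none higher (median -0.40). mt-Co1 had 3297, 3128 and 3564 CPM in cycling and 5554, 5515 and 5626 CPM in resting cells (-0.74, SE 0.038). With cells of matched depth 1 of 12 was lower and the median was -0.05.

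The genes that mark Tfh cells took a smaller portion of the transcriptome in cycling cells. Of 32 tested members 26 fell, none rose and 6 did not pass, with a median log2 change of -0.61 (23.8% of all tested genes fell). Il21 (chr3:37222759-37232636, - strand), the cytokine of B-cell help, had 165, 186 and 141 CPM in the cycling and 436, 443 and 439 CPM in the resting cells of mice 1, 2 and 3. The 2 groups lie far apart and the change was -1.41 (SE 0.081) with adjusted p = 1.9e-14. Cxcr5 (chr9:44511787-44561877, - strand) had 62.8, 82.9 and 85.9 against 112, 134 and 137 CPM (-0.73, SE 0.11, adjusted p = 3.2e-06), and Pdcd1, which encodes PD-1, 187, 138 and 136 against 232, 267 and 234 CPM (-0.66, SE 0.10, adjusted p = 2.9e-06). Neither gene's groups overlapped, which was so for 55.2% of all tested genes. Both proteins were part of the sort.

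Bcl6 was low in all 6 sums, at 8.43, 11.8 and 18 CPM in cycling and 17.3, 17.8 and 20.6 CPM in resting cells, and did not pass (-0.59, SE 0.28, adjusted p = 0.082). Tcf7, which encodes the transcription factor TCF-1, overlapped between the groups (333, 350.0 and 434 against 412, 463 and 445 CPM) and fell by a little (-0.26, SE 0.071, adjusted p = 0.0031). Izumo1r (folate receptor 4) changed by -1.21 (SE 0.061), Tnfsf8 (CD30 ligand) by -0.84 (SE 0.041) and Cd40lg (CD40 ligand) by -1.05 (SE 0.052), the last from 1306, 1427 and 1337 to 677, 635 and 654 CPM. Sostdc1 (-1.52) had the lowest value of the list, while Sh2d1a, the gene of the adaptor SAP, stood at 0.03 and Batf at -0.02, neither past the threshold.

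Depth bears on how firmly these falls stand. Matched for depth, 10 of 28 tested Tfh genes fell, none rose and the median was -0.40. In that comparison Cxcr5 stood at -0.24 (adjusted p = 0.46), Pdcd1 at -0.37 (0.17) and Tcf7 at 0.15 (0.46), so the calls for these 3 ended and the sign of Tcf7 turned. Tcf7 also lost its call without mouse 1 (-0.23, adjusted p = 0.070), without mouse 2 (-0.18, 0.12) and with DESeq2 (-0.24, 0.12). With every cell thinned to 2000 UMIs, 20 of 30 Tfh genes fell and none rose.

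**Figure D3:**
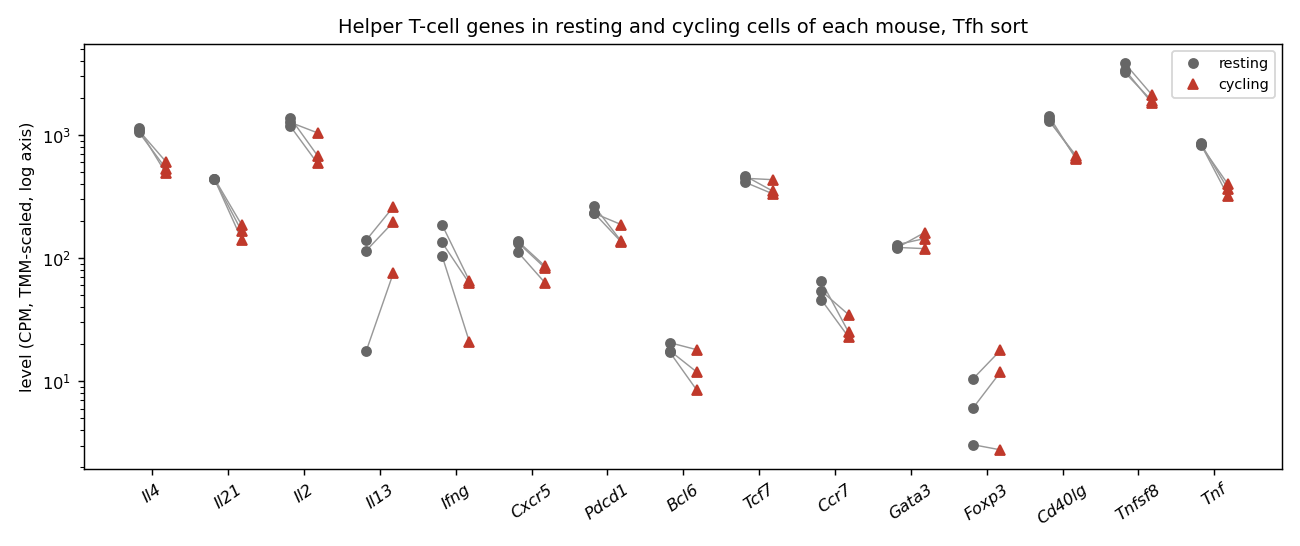
Level of 15 genes of helper T cells (y axis, TMM-scaled CPM on a log axis) in the resting (grey circles) and cycling (red triangles) cells of each mouse, with lines joining the 2 states of 1 mouse. Il4, Il21, Il2, Cd40lg, Tnfsf8 and Tnf were lower in the cycling cells of each mouse, Il13 was higher in each, and Bcl6, Gata3 and Foxp3 did not pass the test.

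Most cytokine genes were lower too: 15 of 26 tested members fell, 2 rose and 9 did not pass (median -0.68). Il4 (chr11:53602982-53618669, - strand), which directs class switching to IgE and IgG1, had 534, 608 and 489 CPM in cycling and 1063, 1094 and 1133 CPM in resting cells, a change of -1.0 (SE 0.059) with adjusted p = 3.4e-14. The highest cycling value was below the lowest resting value, and 55.2% of all tested genes likewise had no overlap between the groups. Counted per cell the order turns, with 5.00, 5.42 and 4.06 Il4 UMIs in a cycling cell and 3.01, 3.03 and 3.33 in a resting cell. Il2, a T-cell growth factor, had 678, 587 and 1040.1 against 1381, 1180.2 and 1267 CPM (-0.78, SE 0.082), and Ifng, the Th1 cytokine, 65.6, 21 and 62.3 against 187, 105 and 134 CPM (-1.58, SE 0.14). Tnf changed by -1.23 (SE 0.065), Areg (amphiregulin) by -1.46 (SE 0.092) and Il10 by -0.89 (SE 0.11). Matched for depth, 9 of 19 cytokine genes fell and 1 rose, and Ifng stood at 0.16 (adjusted p = 0.80) and Il10 at -0.88 (0.058).

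Il13 (chr11:53631324-53634702, - strand), a gene of type 2 effector cells that lies near Il4 on chromosome 11, was 1 of the 2 cytokine genes that rose. It had 261, 197 and 76.2 CPM in cycling and 139.7, 115 and 17.5 CPM in resting cells, higher in 3 of 3 mice but with overlapping groups, since mouse 3 was low in both states (0.97, SE 0.12, adjusted p = 1.4e-07). Its UMIs lay in few cells: 9.65%, 8.94% and 4.60% of the cycling and 4.90%, 3.96% and 3.58% of the resting cells had any. At 2000 UMIs a cell the shares were 6.25%, 4.96% and 2.38% against 3.99%, 2.87% and 3.74%, lower in the cycling cells of mouse 3. The call ended in 2 alternatives. The change was 0.015 (adjusted p = 0.97) without cells that had a UMI of a small set of B-cell, CD8, myeloid and plasma-cell markers, and -0.13 (0.77) without the top 5% of cells by UMI total in each mouse. The other cytokine gene that rose was Csf2, the gene of GM-CSF (1.67).

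The type 2 list had no common direction, with 3 of 13 tested members higher and 4 lower. Gata3, the type 2 regulator, had 161, 119 and 144 CPM against 122, 122 and 129 CPM and did not pass (0.19, SE 0.10, adjusted p = 0.14). Igfbp7 rose (1.68, SE 0.32) and lost its call without mouse 1 (0.94, adjusted p = 0.072). Of 8 tested Th1 and cytotoxic genes 7 fell and none rose, among them Stat4 (-0.83, SE 0.12). The calls for Ifng, Stat4, Ccl5, Xcl1 and Nkg7 ended in at least 1 alternative. Ifng stood at 0.16 (adjusted p = 0.80) at matched depth. Stat4 stood at -0.55 (adjusted p = 0.095) at matched depth and at -0.40 (0.10) in thinned cells. Ccl5 lost its call with DESeq2 (adjusted p = 0.090), in thinned cells (-0.29, 0.60) and without the top 5% of cells by UMI total (-0.29, 0.67). Xcl1 lost its call in thinned cells (-0.26, adjusted p = 0.63) and without mouse 1 (-1.21, 0.066), and Nkg7 without mouse 3 (-0.29, 0.33). Ccl5 and Xcl1 varied widely between mice, as with 5.62, 4.56 and 66.5 CPM of Ccl5 in cycling and 79.6, 16.9 and 92.2 CPM in resting cells. Of 12 regulatory T-cell genes 6 fell and 2 rose. Foxp3 itself had 17.8, 11.8 and 2.77 CPM in cycling and 10.5, 6.06 and 3.05 CPM in resting cells, which did not pass (0.76, SE 0.36, adjusted p = 0.081). Of the 2 that rose, Il2ra encodes the IL-2 receptor α chain (0.95) and Capg an actin-capping protein (0.55). Ctla4 fell (-0.60, SE 0.081).

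At equal depth the shares of cells with a UMI gave the same order for several helper genes. After thinning to 2000 UMIs an Il21 UMI was found in 23.2%, 28.1% and 21.4% of the cycling cells of mice 1, 2 and 3 and in 47.8%, 51.2% and 44.3% of their resting cells. In the 177 B cells, which should lack Il21, the share was 6.21%, so all 6 shares lay above this background. Without thinning the shares were 56.1%, 59.3% and 51.7% against 51.5%, 54.6% and 49.9%. Il4 was found in 45.5%, 40.5% and 41.7% of thinned cycling cells and 45.9%, 50.7% and 52.9% of thinned resting cells, against 5.08% of B cells. For Cd40lg the shares were 57.1%, 66.1% and 61.9% against 79.4%, 81.7% and 78.4%, with 8.47% in B cells. For Cxcr5, which B cells also express (50.3%), they were 12.5%, 13.2% and 9.52% against 19.1%, 23.6% and 23.0%. Thinning left out 2, 2 and 3 cycling and 174, 206 and 99 resting cells, and the B cells had a median of 2052 UMIs before it.

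Read from the other side, cells with an Il21 UMI at this depth held a smaller share of cycling cells in each mouse. That share was 6.63% (95% interval 4.38 to 9.57), 7.74% (5.42 to 10.7) and 7.93% (4.77 to 12.2) of T cells with an Il21 UMI, and 17.4% (14.1 to 21), 17.0% (13.8 to 20.6) and 20.7% (16.4 to 25.6) of those without. These are the same thinned counts as in the shares by state, and the intervals take cells as independent, so they add no further evidence. For Il4, 12.8%, 10.2% and 13.2% of cells with a UMI were cycling, against 12.5%, 15.1% and 17.4% of those without.

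Genes of acute stimulation, which PMA and ionomycin induce within minutes, were lower almost as a block: 35 of 37 tested members fell, none rose, and the median was -0.71. Btg1 and Btg2, 2 antiproliferative genes, had 967, 927 and 906 and 456, 376 and 331 CPM in cycling cells, against 2595, 2665 and 2319.8 and 1164, 1047 and 1059 CPM in resting cells. Their log2 changes were -1.44 (SE 0.046) and -1.48 (SE 0.061). Zfp36l1, which destabilizes mRNA, changed by -1.21 (SE 0.053) and Nfkbid, an atypical inhibitor of NF-κB, by -1.03 (SE 0.047). Immediate early factors fell too, as with Fos (-0.69), Egr1 (-0.51), Nr4a1 (-0.53) and Myc (-0.43). Matched for depth, 14 of 35 fell, 1 rose and the median was -0.33.

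The receptor complex and its checkpoints were lower in the same way. Of 25 T-cell receptor signalling genes 16 fell and 1 rose (median -0.46). Cd3d had 797, 802 and 839 CPM against 1357, 1370.3 and 1357 CPM (-0.75, SE 0.048) but 7.46, 7.15 and 6.97 UMIs in a cycling cell against 3.85, 3.80 and 3.98 in a resting cell. The phosphatase gene Ptpn22 changed by -0.83 (SE 0.076). Of 17 inhibitory and costimulatory receptors 16 fell and none rose (median -0.66), led by Tnfrsf9 (4-1BB, -1.35, SE 0.15) and Lag3 (-1.33, SE 0.098). Matched for depth, 4 of 19 signalling genes and 6 of 16 receptors fell, and Cd28, a costimulatory receptor that changed by -0.56 (SE 0.057) in the full comparison, stood at 0.17 (adjusted p = 0.36).

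Genes of trafficking moved both ways. Of 25 migration and adhesion genes 7 rose and 11 fell, and of 12 naive and recirculating T-cell genes 3 rose and 7 fell. Ccr7, the chemokine receptor of the T-cell zone, went from 54.2, 45.9 and 64.8 to 34.7, 22.8 and 24.9 CPM (-0.95, SE 0.18). Gpr183, a receptor for oxysterols that positions lymphocytes at the edge of follicles, changed by -0.74 (SE 0.082), and Klf2, which maintains recirculation genes, by -0.61 (SE 0.085). Without the top 5% of cells by UMI total, Ccr7 stood at -0.46 (adjusted p = 0.16) and Klf2 at -0.32 (0.051). At matched depth Gpr183 stood at -0.33 (adjusted p = 0.26) and Klf2 at -0.12 (0.65), and of 17 tested migration genes 2 rose and 1 fell. Coro1a, an actin regulator, rose (0.54, SE 0.048).

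Of 14 interferon-stimulated genes 8 fell and 1 rose, and of 16 apoptosis regulators 7 fell and 3 rose. Isg15 had 85.3, 109 and 88.6 CPM against 152, 172 and 133 CPM (-0.70, SE 0.10), and stood at -0.27 (adjusted p = 0.34) at matched depth. Fasl changed by -1.48 (SE 0.16), its receptor gene Fas by -1.02 (SE 0.15) and Bcl2a1b by -0.91 (SE 0.061), a family member with near-identical copies whose count is therefore uncertain. Bak1, a pore-forming member, rose (0.78, SE 0.13). At matched depth the calls for Fasl (-0.24, adjusted p = 0.69), Fas (-0.66, 0.15) and Bak1 (0.070, 0.91) ended, and 1 of 14 tested apoptosis regulators fell and none rose.

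Markers of macrophages were higher in cycling cells, in step with the few cells that held them. Of the 7 tested genes of the list 4 rose and 2 fell. Apoe had 160.2, 57.4 and 213 CPM in cycling and 27.3, 10.4 and 57.2 CPM in resting cells (2.26, SE 0.14), and Tyrobp 25.3, 9.11 and 33.2 against 5.92, 1.30 and 6.10 CPM (2.31, SE 0.33). Cst3 was lower (-0.52, SE 0.11) and lost the call without mouse 1 (-0.30, adjusted p = 0.084) and when cells with macrophage or MHC class II transcripts (13 cycling, 19 resting) were left out (-0.0052, adjusted p = 0.98). Of the 6 tested B-cell genes 1 fell, the immunoglobulin chain Igkc (-0.62, SE 0.086), and none rose; T cells do not transcribe Igkc. At matched depth Igkc stood at -0.035 (adjusted p = 0.91) and no B-cell gene of the 6 passed. Without those 13 and 19 cells the counts were 1755 genes higher and 1680 lower. Without cells that had a UMI of the B-cell, CD8, myeloid and plasma-cell markers named with Il13, they were 1473 and 1352.

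Outside the 5 cell cycle lists, the 10 largest rises were those of Neil3, Depdc1a, Sapcd2, Spag5, Lrr1, Nek2, Shcbp1, Mxd3, Cep55 and Sgol1. These lists are not complete: Spag5, Nek2, Cep55 and Sgol1 also serve cell division. As with the mitosis list, the rise of such genes describes the choice of cells and supports nothing. Nek2, a centrosomal kinase, had 46.9, 57.4 and 54 CPM against 0.910, 1.30 and 2.29 CPM, and Shcbp1 90.9, 85.7 and 99.7 against 2.28, 1.73 and 5.33 CPM. Neil3, a DNA glycosylase, had 93 UMIs in all cycling and 2 in all resting cells, a ratio of 97.9 (95% counting interval 26.4 to 821). Sapcd2 had 77 against 3 (ratio 54.1, 17.8 to 268) and Lrr1 65 against 3 (45.6, 14.9 to 227).

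For 7 of the 10 largest falls (Tcp11l2, Phf1, Kdm5b, Padi4, Kdm7a, Frat2 and Ephx1) the cycling cells had fewer UMIs per cell in each mouse. A relative fall larger than the ratio of UMI totals gives fewer UMIs per cell by arithmetic, so this is no separate observation. Tcp11l2 (chr10:84576626-84614359, + strand) had 9.37, 15.5 and 8.31 CPM in cycling and 94.7, 107 and 80.02 CPM in resting cells. Its log2 change was -3.06 (SE 0.19) with adjusted p = 6.5e-14, and its groups did not overlap, as for 55.2% of all tested genes. A cycling cell had 0.0877, 0.138 and 0.0690 Tcp11l2 UMIs and a resting cell 0.268, 0.298 and 0.235, fewer in 3 of 3 mice. Frat2, an inhibitor of GSK-3, had 87.1, 105 and 91.4 against 327, 374 and 367 CPM (-1.91, SE 0.089), and its UMIs per cell were 0.816, 0.935 and 0.759 against 0.928, 1.04 and 1.08. Padi4, a protein-arginine deiminase, changed by -1.97 (SE 0.16), and the chromatin regulators Phf1, Kdm5b and Kdm7a by -2.63 (SE 0.31), -2.0 (SE 0.23) and -1.94 (SE 0.20). Matk (-1.85, SE 0.13), a kinase that restrains Src family kinases, Inpp5f, a phosphoinositide phosphatase (-1.81, SE 0.29), Ephx1, an epoxide hydrolase (-1.79, SE 0.21), and Wdfy1 (-1.87, SE 0.32) complete the 10. Phf1 lost its call in thinned cells (-1.12, adjusted p = 0.054).

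The levels changed in steps along the sum of the 8 genes, given as a description because the sum is the rule. From cells with 0, through 1 to 3, 4 to 7 and 8 to 15, to 16 or more UMIs, the mitosis list rose from a mean over mice of 1767 through 2222, 7355 and 11376 to 15968 CPM. DNA replication genes went from 1478 through 2240 to 5742 and 6045 CPM and were lower again, at 4509 CPM, in the top class. Acute stimulation genes went from 38719 through 35598, 26715 and 25873 to 23505 CPM, and Tfh genes from 11556 through 10481, 8592 and 8006 to 6929 CPM. Il21 was level between 0 and 1 to 3 UMIs (430 and 427 CPM) and then 258, 243 and 146 CPM. Il4 went from 1072 through 916, 873 and 803 to 474 CPM. The 4 to 7 and 8 to 15 classes held 12 to 24 cells a mouse, so a single one of their values rests on few cells, while the class of 1 to 3 held 124 to 222.

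**Figure D4:**
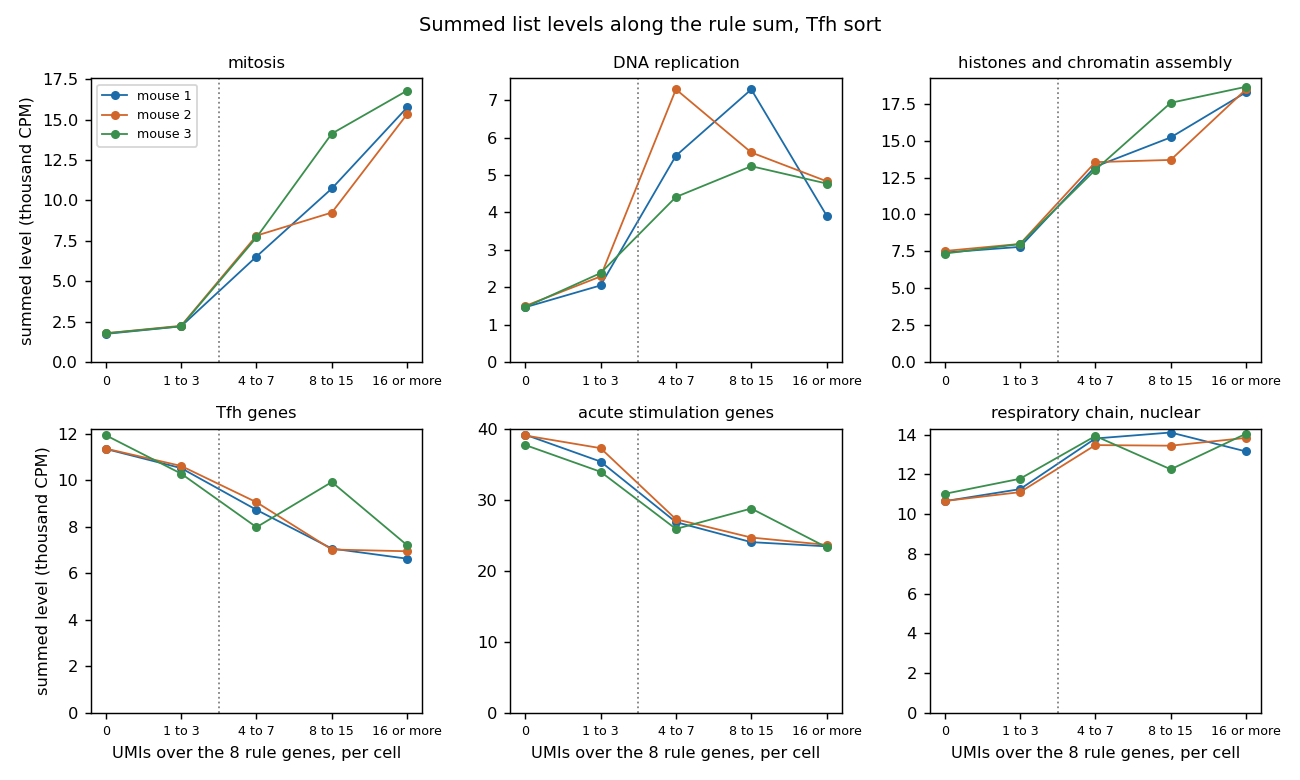
Summed level of 6 gene lists (y axis, in units of 1000 CPM) in cells grouped by their UMIs over the 8 genes of the rule (x axis), 1 line per mouse; the dotted line is the threshold of 4 UMIs. Mitosis genes climbed to the last class in each mouse, DNA replication genes were highest at 4 to 7 or 8 to 15 UMIs, and Tfh and acute stimulation genes were lower in every class above the threshold than below it.

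To see how the cycling cells vary among themselves, they were ranked within each mouse by the share of UMIs in the DNA replication list, and the 38, 41 and 29 highest-ranked cells of mice 1, 2 and 3 (replication-high, 108 in all) were compared with as many lowest-ranked cells (replication-low, 108). The median share of the list was 8323, 8030 and 7536 CPM in replication-high and 1559, 1814 and 1948 CPM in replication-low cells. Median UMI totals were 7154, 8324 and 6149 against 6821, 6766 and 7242. The list itself and the 8 genes of the rule were left out of the test. Since the cells were cut by their own counts, genes co-expressed with the list must follow the cut, and their calls are a description. Of 3640 genes tested, 382 (10.5%) were higher and 366 (10.1%) lower in the replication-high cells. Without mouse 2 the counts were 216 and 206, without mouse 1 291 and 225, and with DESeq2 77 and 81.

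Genes of S-phase entry stood high in the replication-high cells and genes of late mitosis in the replication-low cells. E2f1 (chr2:154559407-154569892, - strand) had 107, 108 and 112 CPM in the replication-high and 3.65, 7.16 and 4.91 CPM in the replication-low cells of mice 1, 2 and 3 (4.26, SE 0.45). Ccne1 had 41.6, 80.4 and 49.98 against 7.29, 3.58 and 9.82 CPM (3.04). Noc2l (2.91), Paxip1 (2.85) and Tbc1d10b (2.76) were also among the largest rises. The histone variant of centromeres, Cenpa (chr5:30666777-30674830, + strand), had 125, 125 and 249.9 against 875, 769.8 and 869 CPM (-2.40, SE 0.16). In E2f1, Ccne1 and Cenpa the groups did not overlap, which is a description only. The share of all tested genes without overlap is not given for this comparison. Between cycling and resting cells it was 55.2%, so a lack of overlap does not set these 3 genes apart. Cdc20 (-2.04), Ccnb1 (-1.66) and Plk1 (-1.43), which act in mitosis, were lower in replication-high cells, and Rrm2 (2.08), Tk1 (1.95) and Tyms (1.73) higher. Of 19 nucleotide synthesis genes 16 rose and none fell, and of 60 mitosis genes 7 rose and 23 fell.

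Growth genes and stimulation genes also differed between them. Myc and ribosome biogenesis genes were higher in the replication-high cells in 13 of 23 (median 0.66) and glycolysis genes in 9 of 13 (0.40), none lower in either. Acute stimulation genes were lower in 20 of 34 and higher in none (median -0.41), a count that fell to 5 of 34 both with DESeq2 and without the cells that held macrophage or MHC class II transcripts. Among 26 Tfh genes 6 fell and none rose. Tcf7 had 279.6, 294 and 408 CPM in replication-high and 449, 512 and 481 CPM in replication-low cells (-0.58, adjusted p = 0.0041), and Gata3 113, 83.2 and 104 against 226, 147 and 201 CPM (-0.93, adjusted p = 0.0010). Il2 was higher in replication-high cells of each mouse (1008, 868 and 1383 against 558, 408 and 1228 CPM; 0.68, adjusted p = 1.4e-04). Il4 (-0.30, adjusted p = 0.13), Il21 (0.17, 0.54), Pdcd1 (0.42, 0.14), Cxcr5 (-0.71, 0.059), Ifng (0.85, 0.33) and Il13 (-0.04, 0.95) did not pass.

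Several of the largest falls in this comparison were genes of other cell types. Apoe had 5.95, 2.77 and 4.17 CPM in replication-high and 613, 179 and 752 CPM in replication-low cells (-6.67), and Cd63 had 1 UMI against 79 (ratio low to high 95.3, 95% counting interval 16.6 to 3813). Of the cells with 3 or more macrophage UMIs, 4 were replication-low and none replication-high, and of those with 10 or more MHC class II UMIs 5 and 3. H2-Ab1 (-2.36) was -0.085 (adjusted p = 0.89) without these cells and not called by DESeq2 (adjusted p = 0.22), and the genes lower in replication-high cells then numbered 202. Mt1 (-2.40), a metallothionein, and Ifnar2 (-2.22), an interferon receptor chain, complete the 6 largest falls, and Ifnar2 stood at -2.18 without these cells. With the cells of each mouse split into 2 equal parts by rank, Mt1 stood at -0.34 (adjusted p = 0.34) and Paxip1 at 1.02 (0.087), both no longer called.

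The same rule found 650 cycling cells in the IL-4 reporter sort, 590 with a mouse (170, 198 and 222), which is 14.8%, 19.9% and 17.6% of its filtered cells. These shares are not set against those of the Tfh sort, because the reporter lane was deeper (median totals of 17752 to 18741 UMIs for cycling and 5376 to 6091 for resting cells) and used other chemistry and another sequencer, so lane and sort cannot be told apart in any level. The change from resting to cycling is taken within 1 lane, and its difference between the sorts was tested as an interaction in 1 edgeR fit over the 12 sums with the mouse as a block. Chemistry and depth can alter a change too, and the same threshold takes other cells in a deeper lane. Lane and sort therefore cannot be told apart in these differences either. Of 9343 genes tested, the change was higher in the Tfh sort for 242 (2.59%) and lower for 790 (8.46%). In the fit of the reporter sort alone 3057 of 9405 genes (32.5%) rose and 3039 (32.3%) fell.

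Of 67 mitosis genes 2 had a higher and 6 a lower change in the Tfh sort (median difference -0.04). Of 50 DNA replication genes none had a higher and 9 a lower change, a larger share than the 8.46% of all tested genes, with a median difference of -0.40 beside -0.06 for all genes. Pttg1 (chr11:43420250-43426251, - strand) differed by -4.13 (SE 0.16, adjusted p = 2.2e-17). In the reporter sort it had 224, 225 and 223 CPM in cycling and 18.6, 18 and 13.1 CPM in resting cells, a change of 3.78, where the Tfh sort gave -0.32 as above. Whether the gene models used for counting Pttg1 were the same in both matrices is not given in the sources used here, and the part of that in the difference was not tested.

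The fall of Tfh genes with cycling was smaller in the Tfh sort than in the reporter sort for several genes. Of 32 members 15 had a higher and 4 a lower change in the Tfh sort (median difference 0.45). With the reporter cells thinned to the depth of the Tfh sort the counts were 18 and 1. That fit called 908 of 8858 genes over both directions, and its shares by direction are not given here. Cxcr5 changed by -0.73 in the Tfh sort and by -1.98 in the reporter sort (difference 1.21, adjusted p = 5.3e-05), where it had 14.3, 8.72 and 11.7 CPM in cycling and 42.1, 41.3 and 52.6 CPM in resting cells. Tcf7 changed by -0.26 and -1.49 (difference 1.20, adjusted p = 5.8e-09). Bcl6 changed by -0.59 and -1.95 (difference 1.32, adjusted p = 0.0057) and lost the call without mouse 3 of the Tfh sort (adjusted p = 0.063). The Tfh sort required the CXCR5 protein and the reporter sort did not, so the resting cells of the 2 sorts are not the same population.

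Il4 changed by -1.0 in the Tfh sort and by -0.39 in the reporter sort (difference -0.65, adjusted p = 9.5e-04). In the reporter sort Il4 had 40.5, 40.1 and 31.6 CPM in cycling and 50.5, 44.9 and 51.4 CPM in resting cells of mice that carry the reporter cassette in this gene. Il21 changed by -1.41 and -0.97 (difference -0.47, adjusted p = 0.0052) and Il13 by 0.97 and 1.51 (difference -0.58, adjusted p = 0.0040). Both calls ended with the reporter cells thinned (Il21 -0.20, adjusted p = 0.34; Il13 -0.28, 0.37). The call for Il13 also ended without mouse 1 (-0.53, adjusted p = 0.079) or mouse 2 (-0.46, 0.10) of the Tfh sort. It ended too with DESeq2 (-0.36, adjusted p = 0.59) and without the mouse as a block (-0.59, 0.635). Il21 lost its call without the block (-0.47, adjusted p = 0.065) and with 10 or more UMIs required in the reporter sort (-0.22, 0.21). Gata3 (-0.43, adjusted p = 0.037) lost its call with DESeq2, RLE size factors, a minimum count of 30, the thinned reporter cells or no mouse block. Its call also ended with 10 or more UMIs required in the reporter sort and without cells with macrophage or MHC class II transcripts. The same held without mouse 2 (-0.34, adjusted p = 0.23) or 3 (-0.44, 0.065) of the Tfh sort or mouse 2 (-0.33, 0.15) or 3 (-0.39, 0.10) of the reporter sort. Ifng (-0.66, adjusted p = 0.13), Il2 (-0.17, 0.64), Pdcd1 (-0.27, 0.25), Foxp3 (2.50, 0.093) and Ccr7 (0.52, 0.15) did not pass, which does not show that their changes were alike. Some of these did pass without 1 mouse: Ifng without mouse 3 of the reporter sort (-1.09, adjusted p = 9.85e-04) or of the Tfh sort (-0.88, 0.043), Il2 without mouse 2 of the reporter sort (-0.50, 0.027), Pdcd1 without mouse 1 of the Tfh sort (-0.51, 0.033), and Foxp3 without mouse 2 of the reporter sort (5.78, 0.0043). Foxp3 also passed with the reporter cells thinned (5.57, adjusted p = 0.0025), and Ifng without cells with macrophage or MHC class II transcripts (-0.95, 0.014).

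Genes of growth rose less in the Tfh sort, a difference in which sort and lane cannot be told apart. None had a higher and 18 of 28 respiratory chain genes, 17 of 24 proteasome genes and 12 of 31 Myc and ribosome biogenesis genes a lower change, with median differences of -0.34, -0.37 and -0.43 beside -0.06 for all 9343 genes. With the reporter cells thinned these counts were 15 of 28, 11 of 24 and 14 of 31, in a fit that called 908 of 8858 genes over both directions. The counts without cells that held macrophage or MHC class II transcripts are not given here.

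Other large differences came with markers of other cell types. Apoe (4.70), Fcer1g (4.27) and Tyrobp (3.12) differed toward the Tfh sort, and H2-Ab1 (-3.07), H2-Aa (-2.49) and Cd74 (-1.90) toward the reporter sort. At least 10 MHC class II UMIs were found in 85 of 590 cycling and 9 of 1502 resting reporter cells, and at least 3 macrophage UMIs in 7 and 19. Without such cells in either sort the difference for Apoe was 0.45 (adjusted p = 0.79), for H2-Aa 0.26 (0.75), for Cd74 -0.51 (0.0086) and for H2-Ab1 -1.2 (0.0098), and 787 genes differed in place of 1032. Pde2a (2.37) and Pde3b (2.09), 2 phosphodiesterases of cyclic nucleotides, and H2-Q2 (2.23), of a family with near-identical copies, remained past the threshold at 1.99, 1.8 and 1.89 in that order. Without mouse 3 of the reporter sort the calls for Fcer1g (2.80, adjusted p = 0.37) and Tyrobp (3.0, 0.19) ended. They also ended with the reporter cells thinned, at 3.03 (adjusted p = 0.14) and 1.10 (0.86), and without the mouse as a block (0.055 and 0.11). Cxcl2 (-2.77) stood at -3.18 without the cells with macrophage or MHC class II transcripts and Il6 (-2.44), without its call, at -1.87 (adjusted p = 0.11), and Il6 was also not called without mouse 2 of the Tfh sort (-1.26, 0.46) or mouse 3 (-2.05, 0.051).

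**Figure D5:**
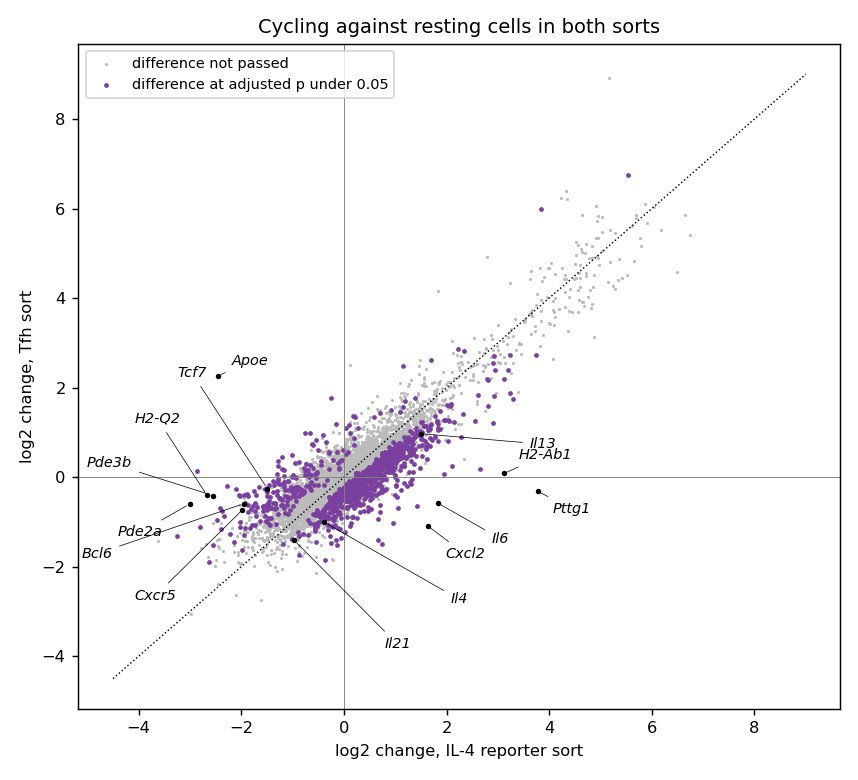
Log2 change of cycling against resting cells in the IL-4 reporter sort (x axis) and in the Tfh sort (y axis), 1 point a gene; purple points differed between the sorts at an adjusted p under 0.05 (1032 of the 9343 genes tested) and the dotted line marks equal change. Pttg1 lies far below the line at -0.32 and 3.78, while Cxcr5, Bcl6 and Tcf7 lie above it.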

How the data were processed

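Unnormalized UMI counts make up the deposited gene matrix of each sort. The deposited hashtag tables hold tag counts, and whether these are molecules or reads is not given in the sources used here. Per the labels, the Tfh sort used 10x version 2 chemistry and the reporter sort version 3. Cell Ranger (2.2.0), 2 releases of bcl2fastq (2.18.0.12 and 2.20.0.422), mm10 and GRCm38 appear in the submitters' processing notes; the header of the reporter matrix gives software version 3.0.2. Features with the same symbol (67 of 28692) were summed.

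A cell's mouse was its top hashtag at 10 or more counts and at least 3 times the second, which removes captures of 2 mice; no doublet caller was run. UMIs were summed per mouse and state and tested with edgeR 4.0.16 under R 4.3.3 (glmQLFit, glmQLFTest, TMM, filterByExpr at a minimum count of 10, limma 3.58.1), with the 8 genes kept in the totals but not tested. DESeq2 1.42.0 was an alternative. Both states of a mouse come from the same animal by its hashtag, so the mouse is a block; deviations of the 2 states from their group means correlated at 0.09, 0.06 and 0.05 within a mouse and at -0.05 to 0.00 between mice over 2955 genes. The 3 fits were tested on simulated counts with known changes. Cells were filtered, thinned and matched with Python 3.11.15, numpy 2.4.6, pandas 2.3.3 and scipy 1.17.1, with fixed seeds.

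The members and the 30 gene lists were chosen with earlier results of these data known. Named genes are 12 helper genes, the 10 largest rises and falls outside 5 cell cycle lists (adjusted p under 0.05, same direction in 3 of 3 mice, 20 CPM or more), up to 4 members of each list by adjusted p, and 6 each way in the other comparisons; genes known only by a clone or model name were skipped. Further list members named beside a count were chosen after their values were seen. Some genes that this rule names are not reported here. With the mouse as a block, p-values measure how the change within a mouse varies over 3 mice of 1 lane, not the spread of levels between mice. They also borrow spread from other genes: the main fit had 2 residual and a median of 25.2 prior degrees of freedom. Very small p-values thus rest largely on that borrowing. Ratios on 1 to 3 UMIs carry an exact counting interval. Gene positions are GRCm38 with GENCODE M21. Alternatives changed the tool, size factors, filter, block, depth, rule threshold, hashtag rule or cells, or left out a mouse. Those that leave out cells with macrophage or MHC class II transcripts were chosen after seeing the data.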

Additional observations from a re-analysis of the deposited data

Results flagged for a closer look

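The change from resting to cycling cells differed between the Tfh sort and the IL-4 reporter sort, by edgeR's interaction test with Benjamini-Hochberg adjustment over 9343 genes, for 19 named genes. Values are the log2 change of the Tfh sort minus that of the reporter sort. Among genes of helper T cells, Bcl6 (1.32), Cxcr5 (1.21) and Tcf7 (1.20) had the higher value in the Tfh sort, and Il4 (-0.65), Il21 (-0.47), Il13 (-0.58) and Gata3 (-0.43) the lower. Pde2a (2.37), H2-Q2 (2.23) and Pde3b (2.09) had the higher value too. Pttg1 (-4.13) had the lowest of all named genes, with Cxcl2 (-2.77) and Il6 (-2.44) also lower.

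Genes of macrophages, Apoe (4.70), Fcer1g (4.27) and Tyrobp (3.12), and of MHC class II cells, H2-Ab1 (-3.07), H2-Aa (-2.49) and Cd74 (-1.90), were flagged by the same test. The values of Apoe, H2-Ab1, H2-Aa and Cd74 without cells that hold such transcripts are given with the comparison of the sorts; Fcer1g and Tyrobp were not among the genes tested then.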

How the results depend on the processing

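For cycling against resting cells, genes higher and lower numbered 1009 and 708 with DESeq2, 898 and 771 with every cell thinned to 2000 UMIs, 438 and 366 with resting cells matched for depth, and 1069 and 857 without the top 5% of cells by UMI total, beside 1765 and 1733. Each mouse left out in turn gave 1369 to 1707 higher and 1265 to 1557 lower. For replication-high against replication-low cells the counts were 77 and 81 with DESeq2, 53 and 43 with thinned cells, 232 higher at a minimum count of 30, 202 lower without cells with macrophage or MHC class II transcripts, and 216 to 425 higher and 206 to 416 lower without 1 mouse, beside 382 and 366. The difference between sorts gave 414 genes with DESeq2 and 692 to 996 without 1 mouse, beside 1032. Thinned and depth-matched fits tested fewer genes on fewer UMIs. The share of cycling cells per mouse had a mean of 9.51% at a threshold of 8 UMIs.

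Direction turned at matched depth for Ifng (0.16), Tcf7 (0.15), Cd28 (0.17), Mif (-0.39), mt-Atp6 (0.032), Npm1 (-0.38), Nhp2 (-0.19), Eif5a (-0.28) and Ifi27l2a (0.14). Without the top 5% of cells by UMI total it turned for Il13 (-0.13), Tcf7 (0.034), Npm1 (-0.015), Eif5a (-0.097) and Ifi27l2a (0.086). Between the sorts it turned for H2-Aa (0.26) without cells with macrophage or MHC class II transcripts, and for Il2, which was not called, with 10 or more UMIs required in the reporter sort (0.031) and without 1 mouse of that sort (-0.50 to 0.063). The cause was not tested.

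Leaving the mouse out as a replicate block gave 1741 genes higher and 1705 lower in cycling cells, 375 and 346 for replication-high against replication-low cells and 693 for the difference between sorts. Among named genes of the first comparison it ended 2 calls (Nkg7 and Xcl1), and among those of the third 6. RLE size factors moved the median change of all genes by less than 0.1 in each comparison. Depth limits genes of a few CPM, such as Bcl6 with 35 UMIs in all cycling cells and Foxp3 with 34.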
